A study of Mus musculus with 12 samples.

Results

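The genes described here are the Notch ligands Dll1, Dll4, Jag1 and Jag2, the Notch receptors Notch1, Notch2, Notch3 and Notch4, and the Notch target genes Hes1 and Hey1. They are 10 of the 57073 gene models of the deposited table, were chosen by name for their role in the pathway, and had 1 row each. The choice was made with earlier results of these data known. Shares set beside those of all genes therefore describe the chosen genes and do not test them as a group. The sequenced RNA came from retinas of mice in the oxygen-induced retinopathy model (OIR), labelled with 75% oxygen, and from retinas of mice kept in normoxic air. All mice were of strain C57BL/6 at postnatal day 17, with 6 libraries in each group, and the labels give no genetic change in either group. The model is known for a first phase, in which high oxygen makes capillaries of the young retina regress, and a second phase in room air, in which the poorly supplied retina becomes hypoxic and abnormal vessels grow. The sources used here give neither the oxygen schedule nor the number of animals behind a library. The p-values therefore set the difference between groups against the spread of libraries within a group, and that spread may be technical.

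Notch signalling passes between touching cells. A ligand of the Delta-like or Jagged type on the sending cell binds a Notch receptor on its neighbour, the receptor is cut first by an ADAM protease and then by gamma-secretase, and its freed intracellular domain joins the DNA-binding protein RBPJ and switches on genes such as those of the Hes and Hey repressors. In growing retinal vessels, Dll4 is known from endothelial tip cells, where it restrains sprouting of neighbouring cells through Notch1, and Jag1 is known to oppose it. Notch4 is known mainly from endothelium, Notch3 from pericytes and smooth muscle, and Hes1 from retinal progenitors and Müller glia, the main glial cells of the retina.

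Depth, as the sum of counts in a library, lay between 17366045 and 21594618 in OIR and between 17361979 and 19390627 in normoxic retinas. Markers of the labelled tissue were present, with a summed level of 8263 to 9100 FPKM in OIR and 7732 to 8569 FPKM in normoxic libraries for 9 genes of rods and bipolar cells (FPKM, deposited by the authors, is a read density per length of gene, set relative to the depth of the library). Normoxic libraries fell into replicate numbers 1 to 3 and 4 to 6, with a chi-square per degree of freedom between pairs of 3.05 to 4.08 within these sets and 12.0 to 15.4 across them. The OIR libraries showed no such clear split, but OIR replicate 6 stood apart, at 7.62 to 12.2 from each other OIR library, against 3.98 to 9.62 among the other 5. Values are therefore also given within numbers 1 to 3 and 4 to 6, which the labels do not name as batches, and the 6 calls described next held without OIR replicate 6. Of 11 tested lens genes 6 fell, and the lens list summed to 2.13 to 14.0 FPKM in OIR and 7.41 to 51.6 FPKM in normoxic libraries, and the part of lens RNA in the other values was not tested.

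The question was how the RNA of these genes differed between OIR and normoxic retinas. Dll4 and all 4 receptor genes rose, Jag1 rose slightly, and Dll1, Jag2, Hes1 and Hey1 did not pass the test. Of the 10 genes, 6 were higher in OIR and none was lower (edgeR's quasi-likelihood test, adjusted p under 0.05 with Benjamini-Hochberg adjustment over all genes tested), against 16.2% of the 18275 tested genes higher and 14.8% lower. In 5 of the 10, every OIR library lay above every normoxic library, against 9.12% of all tested genes. All 10 passed the filter on low counts, and the median log2 fold change was 0.30 over the 10 genes and -0.01 over all tested genes.

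**Figure D1:**
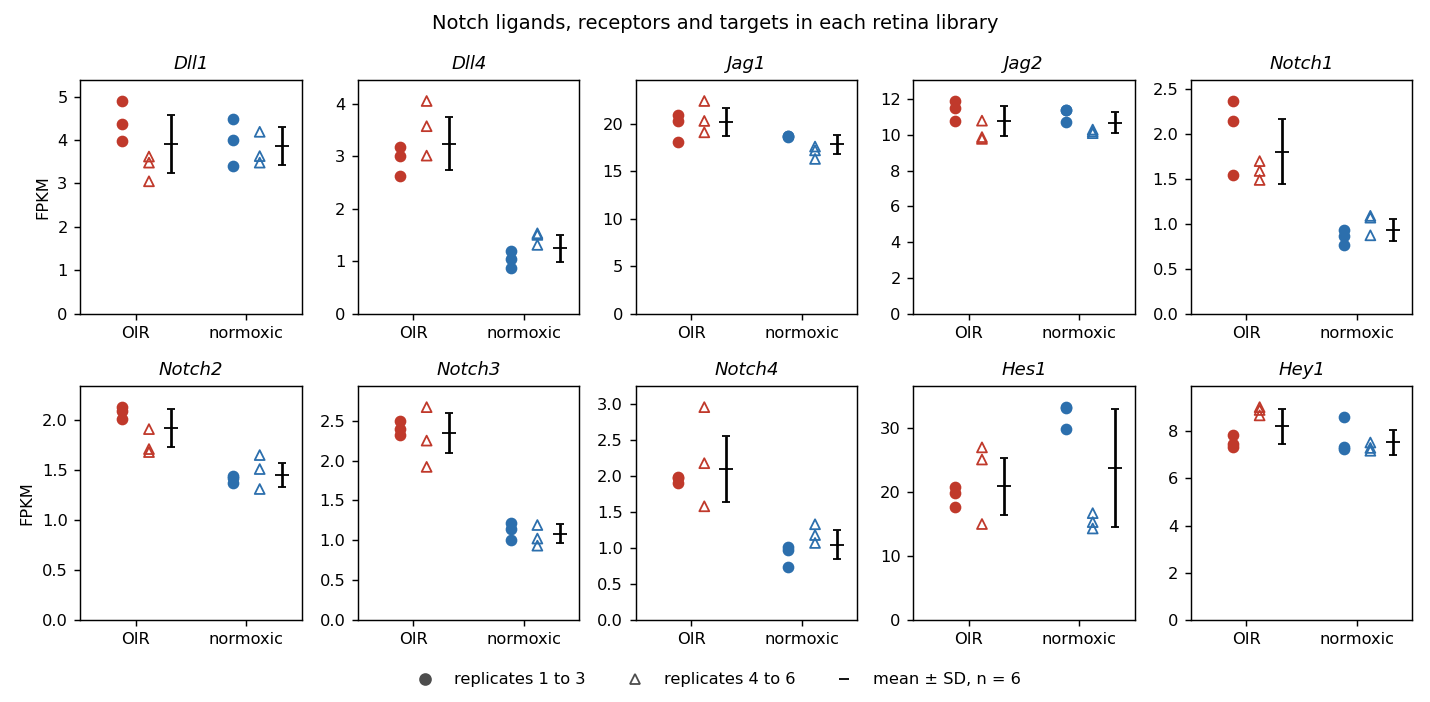
FPKM (linear axis from 0) of each of the 10 genes in every library, OIR left and normoxic right, with filled circles for replicates 1 to 3, open triangles for replicates 4 to 6, and the mean ± SD of 6 libraries. The OIR points of Dll4 (2.62 to 4.05) and of the 4 receptors lie above all normoxic points, while the normoxic points of Hes1 form 2 separate groups at 29.9 to 33.3 and 14.3 to 16.7.

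Among the ligands, Dll4 rose most. Dll4 (ENSMUSG00000027314, chromosome 2, 119156265 to 119166443 in build GRCm39) had a level of 3.01, 3.17, 2.62, 3.57, 4.05 and 3.01 FPKM in OIR replicates 1 to 6, against 1.05, 0.864, 1.20, 1.31, 1.53 and 1.50 FPKM in normoxic replicates 1 to 6. The lowest OIR library thus lay above the highest normoxic library, with numbers 4 to 6 on average above numbers 1 to 3 in either group. The mean level was 3.24 ± 0.504 FPKM in OIR and 1.24 ± 0.260 FPKM in normoxic retinas (SD, n = 6 each). This was a 2.62-fold rise (1.39 ± 0.14 SE on the log2 scale, edgeR adjusted p = 7.3e-07), which rests on 207 to 272 counts per OIR library and 61 to 106 counts per normoxic library.

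Jag1 (ENSMUSG00000027276, chromosome 2, 136923376 to 136958564), the Jagged ligand of endothelium, smooth muscle and several epithelia, was the ligand with the highest level and differed little. It had 18.1, 20.9, 20.3, 20.3, 19.1 and 22.4 FPKM in OIR and 18.7, 18.6, 18.7, 17.6, 17.2 and 16.3 FPKM in normoxic replicates 1 to 6. OIR replicate 1 fell inside the normoxic range and the other 5 OIR libraries lay above it. The log2 fold change was 0.19 ± 0.06 (SE, 1.14-fold, edgeR adjusted p = 0.0159). Within replicate numbers 1 to 3 it was 0.08 (edgeR adjusted p = 0.254) and within 4 to 6 it was 0.29 (edgeR adjusted p = 0.00419), and this difference between the sets had an edgeR adjusted p of 0.148.

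The other 2 ligands did not pass the test. Jag2 (ENSMUSG00000002799, chromosome 12, 112871439 to 112893396), the second Jagged ligand, spanned 9.78 to 11.9 FPKM with a median of 10.8 in OIR and 10.1 to 11.4 FPKM with a median of 10.5 in normoxic libraries. Its fold difference of 1.01 had a 95% interval of 0.940 to 1.09. Dll1 (ENSMUSG00000014773, chromosome 17, 15587616 to 15597134), the Delta-like ligand of neural progenitors, spanned 3.05 to 4.90 FPKM with a median of 3.80 in OIR and 3.41 to 4.49 FPKM with a median of 3.81 in normoxic libraries. Its fold difference of 1.02 had a 95% interval of 0.880 to 1.17. The intervals of both genes exclude a difference of the size of Dll4's.

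All 4 receptor genes rose, and each had OIR libraries entirely above the normoxic ones. Notch3 (ENSMUSG00000038146, chromosome 17, 32339794 to 32385826), the receptor of pericytes and smooth muscle, had 2.32, 2.50, 2.40, 2.25, 2.67 and 1.92 FPKM in OIR and 1.14, 0.998, 1.22, 0.931, 1.19 and 1.02 FPKM in normoxic replicates 1 to 6. The gap between the groups was wider than the range inside the normoxic group. Its log2 fold change of 1.12 ± 0.09 (SE, 2.18-fold) had an edgeR adjusted p of 6.5e-08, and it was 1.10 within numbers 1 to 3 and 1.14 within 4 to 6.

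Notch4 (ENSMUSG00000015468, chromosome 17, 34783242 to 34807477), the endothelial receptor, had 1.91, 1.99, 1.98, 2.18, 2.96 and 1.58 FPKM in OIR and 1.01, 0.731, 0.965, 1.07, 1.33 and 1.18 FPKM in normoxic replicates 1 to 6. OIR replicates 5 and 6 were its highest and lowest OIR values, and even the lowest exceeded every normoxic library. The log2 fold change was 1.01 ± 0.15 (SE, 2.01-fold, edgeR adjusted p = 3.6e-05).

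Notch1 (ENSMUSG00000026923, chromosome 2, 26347915 to 26406675), the receptor through which Dll4 acts on sprouting endothelium and which neural progenitors also use, had 2.15, 2.37, 1.54, 1.70, 1.59 and 1.49 FPKM in OIR and 0.937, 0.766, 0.870, 0.873, 1.09 and 1.07 FPKM in normoxic replicates 1 to 6. OIR replicates 1 and 2 stood above the other 4 OIR libraries. The log2 fold change was 0.96 ± 0.12 (SE, 1.94-fold, edgeR adjusted p = 7.3e-06), with 1.23 within numbers 1 to 3 and 0.68 within 4 to 6, a difference between the sets that did not pass the test (edgeR adjusted p = 0.0789).

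Notch2 (ENSMUSG00000027878, chromosome 3, 97920843 to 98057677), a widely used receptor, had 2.01, 2.09, 2.13, 1.71, 1.68 and 1.91 FPKM in OIR and 1.44, 1.42, 1.37, 1.65, 1.51 and 1.31 FPKM in normoxic replicates 1 to 6. The groups did not overlap, but OIR replicates 4 and 5 lay close above normoxic replicate 4. The log2 fold change was 0.42 ± 0.08 (SE, 1.33-fold, edgeR adjusted p = 6.9e-04), with 0.56 within numbers 1 to 3 and 0.26 within 4 to 6, where it did not pass (edgeR adjusted p = 0.133).

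The sources used here name no strand setting for the counting, so reads of genes that overlap on the opposite strand cannot be told apart from those of the receptor or ligand. Gm17276 covers 21024 bases of the Notch3 locus on the other strand and had 182 counts over the OIR and 180 over the normoxic libraries, beside 2105 and 963 for Notch3. For Notch1, the opposite-strand gene 0610009E02Rik had 93 counts in OIR and 90 in normoxic libraries. For Dll4, Gm14207 had 34 counts in OIR and 19 in normoxic libraries.

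The promoters of the 4 genes with the highest fold changes are shown because these genes rose together. Each is the 250 bases before the RefSeq start, 5′ to 3′ on the gene's strand, and lies at chr2:119325534-119325783 (+) for Dll4, chr17:32166891-32167140 (-) for Notch3, chr17:34564045-34564294 (+) for Notch4 and chr2:26503823-26504072 (-) for Notch1, in build GRCm38.p6, which is not the build of the gene coordinates above. Capitals mark the hypoxia response core (ACGTG or GCGTG, either strand).
Dll4: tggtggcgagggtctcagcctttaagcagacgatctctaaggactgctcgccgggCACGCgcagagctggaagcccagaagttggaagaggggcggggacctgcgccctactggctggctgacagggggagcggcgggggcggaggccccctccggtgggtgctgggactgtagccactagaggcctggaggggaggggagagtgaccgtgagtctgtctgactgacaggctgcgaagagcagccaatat
Notch3: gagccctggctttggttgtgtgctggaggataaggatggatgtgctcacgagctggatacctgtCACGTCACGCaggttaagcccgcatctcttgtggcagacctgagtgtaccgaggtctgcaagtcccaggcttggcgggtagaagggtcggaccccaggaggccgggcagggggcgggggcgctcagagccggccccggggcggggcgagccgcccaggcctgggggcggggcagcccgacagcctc
Notch4: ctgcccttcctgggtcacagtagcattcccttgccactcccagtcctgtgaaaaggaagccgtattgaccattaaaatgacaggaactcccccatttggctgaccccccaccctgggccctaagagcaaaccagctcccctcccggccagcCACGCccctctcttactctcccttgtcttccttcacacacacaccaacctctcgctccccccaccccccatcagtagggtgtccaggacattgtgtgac
Notch1: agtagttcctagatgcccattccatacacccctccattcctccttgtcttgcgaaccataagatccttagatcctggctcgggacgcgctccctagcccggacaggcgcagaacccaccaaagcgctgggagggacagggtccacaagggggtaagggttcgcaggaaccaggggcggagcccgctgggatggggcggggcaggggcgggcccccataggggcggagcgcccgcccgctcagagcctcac

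RefSeq windows were matched by symbol for 8 of the 10 genes, all but Hes1 and Hey1. Dll1 had 2 windows, and a gene counts if any of its windows matched, whereas the shares over all windows are per window. Base content was not taken into account. The hypoxia response core was found in the windows of Dll4, Notch3, Notch4, Jag1, Jag2, Dll1 and Notch2, 7 of the 8, and in 38.6% of all 32851 promoter windows of the same length. It was thus present both in genes that rose and in Jag2 and Dll1, which did not pass the test. In Notch3, 2 matches lie side by side. The RBPJ core (TGGGAA, either strand) was in none of the 8 genes' windows and in 21.6% of all windows. The ETS core (AGGAAG or CGGAAG, either strand) is the motif of a factor family that includes endothelial regulators. It was in 3 of the 8 genes (Notch4, Notch2 and 1 window of Dll1) and in 39.2% of all windows. The GC box (GGGCGG, either strand) was in 5 of the 8 genes (Notch1, Notch2, Notch3, Jag2 and Dll4) and in 32.7% of all windows.

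The target gene Hes1 (ENSMUSG00000022528, chromosome 16, 29883202 to 29886614), a transcriptional repressor, had 2 separate levels in the normoxic libraries, by set of replicate numbers. Its level was 20.8, 17.6, 19.8, 27.0, 25.1 and 15 FPKM in OIR and 29.9, 33.1, 33.3, 15.3, 14.3 and 16.7 FPKM in normoxic replicates 1 to 6. Normoxic replicates 1 to 3 lay above every OIR library, whereas normoxic replicates 4 to 6 lay at or below the low end of the OIR range. The OIR libraries of the 2 sets overlapped, at 17.6 to 20.8 FPKM in numbers 1 to 3 and 15 to 27.0 FPKM in 4 to 6. Replicate numbers did not pair OIR with normoxic libraries, so the signs within the sets rest mainly on the normoxic split. Over all libraries the log2 fold change was -0.18 ± 0.20 (SE, edgeR adjusted p = 0.554), with a 95% interval of the fold of 0.669 to 1.17. Within numbers 1 to 3, Hes1 fell by 0.73 on the log2 scale (edgeR adjusted p = 3.9e-08), and within numbers 4 to 6 it rose by 0.55 (edgeR adjusted p = 0.0135). The fold changes of the sets differed by 1.28 ± 0.18 (SE) on the log2 scale (edgeR's interaction term, adjusted p = 1.2e-04), a test that 8.21% of all tested genes passed.

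The summed level of Müller glia markers turned direction between these sets as Hes1 did, though over all libraries 2 of these markers rose and 4 fell. The summed level of 10 Müller glia markers was 1398 to 1533 FPKM in OIR and 1663 to 1722 FPKM in normoxic replicates 1 to 3, and 1553 to 1739 FPKM in OIR and 1387 to 1454 FPKM in normoxic replicates 4 to 6. Counts from mitochondrial genes did not turn, but were lower in OIR in both sets. They were 2.76% to 3.12% of the total in OIR and 3.75% to 3.91% in normoxic replicates 1 to 3, and 3.04% to 3.13% in OIR and 3.25% to 3.31% in normoxic replicates 4 to 6. Relative to the mean of the Müller glia markers in the same library, Hes1 still differed by -0.52 on the log2 scale within numbers 1 to 3 and by 0.45 within 4 to 6. The part of mitochondrial RNA in this result was not tested.

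Hey1 (ENSMUSG00000040289, chromosome 3, 8728419 to 8732316), a Hes-related repressor known as a Notch target in vessels, had 7.44, 7.35, 7.83, 9.02, 8.67 and 8.90 FPKM in OIR and 7.32, 8.59, 7.25, 7.17, 7.29 and 7.52 FPKM in normoxic replicates 1 to 6. OIR replicates 4 to 6 lay above every normoxic library, and OIR replicates 1 to 3 lay inside the normoxic range. The log2 fold change was 0.13 ± 0.07 (SE, edgeR adjusted p = 0.182), with a 95% interval of the fold of 0.994 to 1.21. It was -0.03 within numbers 1 to 3 (edgeR adjusted p = 0.805) and 0.30 within 4 to 6 (edgeR adjusted p = 0.0211), and the difference between the sets had an edgeR adjusted p of 0.0892.

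**Figure D2:**
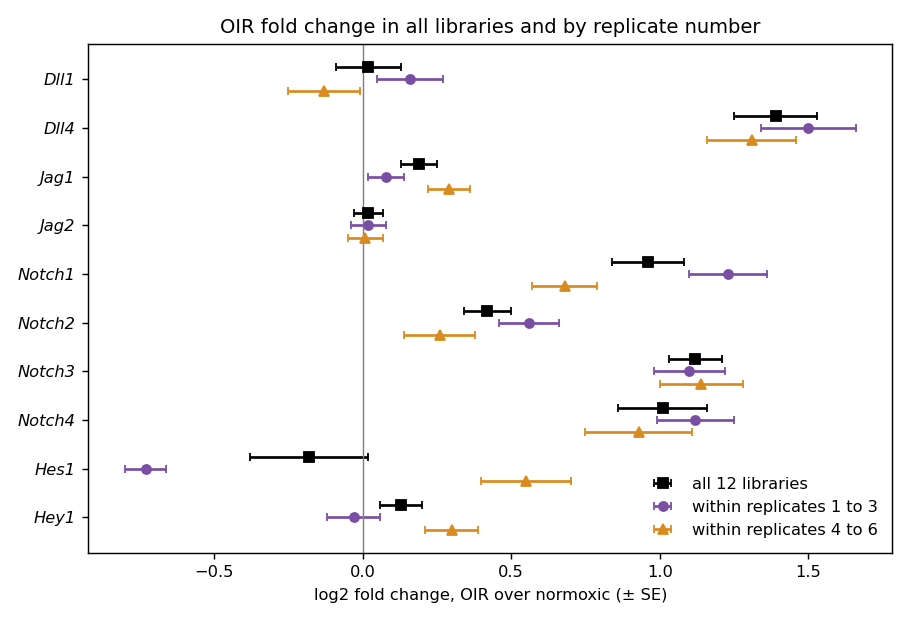
Log2 fold change of OIR over normoxic (x axis, ± SE) for each gene (y axis) in all 12 libraries (squares), within replicate numbers 1 to 3 (circles) and within 4 to 6 (triangles). Dll4 and the 4 receptors are positive in each, while Hes1 lies at -0.73 in one set and 0.55 in the other.

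The order of the genes by level was similar in both groups. In OIR, Hes1 (20.9 FPKM) and Jag1 (20.2 FPKM) had the highest mean levels and their ranges over libraries overlapped, followed by Jag2 (10.8), Hey1 (8.20), Dll1 (3.90), Dll4 (3.24), Notch3 (2.34), Notch4 (2.10), Notch2 (1.92) and Notch1 (1.80 FPKM). The ranges of neighbours from Dll1 down to Notch1 overlapped in OIR. In normoxic libraries the order by mean level was Hes1 (23.8 FPKM), Jag1 (17.9), Jag2 (10.7), Hey1 (7.52), Dll1 (3.87), Notch2 (1.45), Dll4 (1.24), Notch3 (1.08), Notch4 (1.05) and Notch1 (0.935 FPKM), with overlapping ranges from Notch2 downward. Dll1 therefore stood apart from Dll4 in normoxic libraries, but overlapped with it in OIR libraries.

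Of the summed FPKM of the 4 ligands, Dll4 made up 8.54% ± 1.57 in OIR and 3.72% ± 0.920 in normoxic libraries (SD, n = 6 each). Jag1 made up 52.9% ± 2.71 in OIR and 53.0% ± 0.824 in normoxic libraries. The 4 receptors summed to 8.17 ± 0.767 FPKM in OIR and 4.52 ± 0.385 FPKM in normoxic libraries. Notch2 supplied 23.7% ± 3.20 of that sum in OIR and 32.3% ± 3.34 in normoxic libraries, and Notch3 supplied 28.6% ± 1.04 in OIR and 24.0% ± 2.54 in normoxic libraries.

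Ratios of CPM (counts scaled to library size, with 0.5 added) within a library were compared between groups, where the scaling largely cancels. The test was a two-sided exact permutation of all assignments of libraries to groups, in a family of 15 tests with the marker comparisons given next. The log2 ratio of Dll4 to Jag1 was -3.19 ± 0.26 in OIR and -4.33 ± 0.35 in normoxic libraries (SD), a difference of 1.13. That of Dll4 to Dll1 was -0.38 ± 0.42 in OIR and -1.69 ± 0.39 in normoxic libraries, a difference of 1.30. That of Notch3 to Notch2 was -0.13 ± 0.22 in OIR and -0.80 ± 0.21 in normoxic libraries, a difference of 0.68. In each of these 3 ratios all 6 OIR libraries lay above all 6 normoxic ones (exact permutation p = 0.00216, the smallest that these assignments can give, adjusted p = 0.00464). The 2 ratios of Dll4 largely carry its own rise, a log2 fold change of 1.39, against 0.19 for Jag1 and 0.02 for Dll1. They are therefore no evidence separate from it. The ratios of Jag1 to Jag2 (difference 0.17, exact permutation adjusted p = 0.0649), of Notch4 to Notch1 (0.05, exact permutation adjusted p = 0.874) and of Hey1 to Hes1 (0.24, exact permutation adjusted p = 0.490) did not pass. The sign turned between the sets for Hey1 to Hes1 (0.69 within numbers 1 to 3 and -0.22 within 4 to 6) and for Notch4 to Notch1 (-0.10 within 1 to 3 and 0.19 within 4 to 6).

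Markers of vessel cells and of several other cell types were also higher in OIR, and in bulk RNA more cells of a type and more RNA per cell cannot be told apart. Of 14 endothelial markers 13 rose, with a summed level of 149 to 208 FPKM in OIR and 84.7 to 108 FPKM in normoxic libraries. All 8 tip cell markers rose (55.2 to 80.2 FPKM in OIR, 7.74 to 13.5 FPKM in normoxic libraries), as did all 8 pericyte markers (95.6 to 143 FPKM in OIR, 36.7 to 49.5 FPKM in normoxic libraries). Other vessel lists were less uniform, with 5 of 8 arterial markers and 2 of 4 tested smooth muscle markers higher. The smooth muscle list of 6 genes summed to 31.9 to 49.8 FPKM in OIR and 14.9 to 18.7 FPKM in normoxic libraries. Outside the vessel wall, 5 of 6 astrocyte markers rose (51.5 to 92.0 FPKM in OIR, 10.6 to 17.7 FPKM in normoxic libraries), as did 7 of 9 microglia markers (71.2 to 110 FPKM in OIR, 27.3 to 34.8 FPKM in normoxic libraries) and all 4 tested genes of red blood cells (141 to 300 FPKM in OIR, 70.0 to 169 FPKM in normoxic libraries, for the whole list). Of 6 markers of amacrine and horizontal cells 5 fell (74.5 to 91.4 FPKM in OIR, 109 to 134 FPKM in normoxic libraries). Of 9 markers of rods and bipolar cells 4 fell and none rose. The sum of that list was nonetheless not lower, at 8263 to 9100 FPKM in OIR and 7732 to 8569 FPKM in normoxic libraries. The part of these other cell types in the rise of the Notch genes was not tested. No marker of these lists was at 0 over all libraries. Each gene was therefore also measured against the mean log2 level of a marker list in the same library, as a difference in log2(CPM + 0.5).

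Jag1 and Hey1 were lower relative to endothelial markers in OIR. For Jag1 the difference was 1.84 ± 0.23 in OIR and 2.71 ± 0.18 in normoxic libraries, and for Hey1 it was -0.28 ± 0.17 in OIR and 0.65 ± 0.15 in normoxic libraries. These are changes of -0.88 and -0.93 on the log2 scale, with no overlap between the groups (exact permutation p = 0.00216, adjusted p = 0.00464 for each). They largely carry the rise of the markers, whose median log2 fold change was 1.20, against 0.19 for Jag1 and 0.13 for Hey1. Jag1 is also known from other cells, and which cells the RNA of Jag1 or of Hey1 came from was not tested. Jag1 was likewise lower by -0.68 relative to smooth muscle markers, and Dll4 by -1.11 relative to the tip cell markers (exact permutation adjusted p = 0.00464 for each). The tip cell value was -0.27 ± 0.11 in OIR and 0.84 ± 0.14 in normoxic libraries, so Dll4 rose less than the mean of that list, which holds Esm1 and Apln. The size of this difference depended on the summary, with -0.61 against the marker median and -1.64 with a pseudocount of 0.1.

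Over all libraries, Dll4, Notch1 and Notch4 did not pass the test against endothelial markers, nor did Notch3 against pericyte markers. Relative to endothelial markers, Dll4 was at -1.36 ± 0.13 in OIR and -1.61 ± 0.23 in normoxic libraries (difference 0.26, exact permutation adjusted p = 0.0649). This difference passed without OIR replicate 3 (exact permutation adjusted p = 0.0244) or without normoxic replicate 5 (exact permutation adjusted p = 0.0162), and its sign turned, to -0.18, when the median of the markers replaced their mean. The differences of Notch1 and Notch4 relative to endothelial markers were -0.14 and -0.09 (exact permutation adjusted p = 0.498 and 0.512), but -0.57 and -0.52 against the marker median (exact permutation adjusted p = 0.0325 and 0.00406). Their signs differed between the sets: Notch1 was at 0.14 within replicate numbers 1 to 3 and -0.42 within 4 to 6, and Notch4 at 0.04 within 1 to 3 and -0.22 within 4 to 6. Notch3 relative to pericyte markers differed by -0.16 (exact permutation adjusted p = 0.120), and Hes1 relative to Müller glia markers by -0.03 (exact permutation adjusted p = 0.894).

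**Figure D3:**
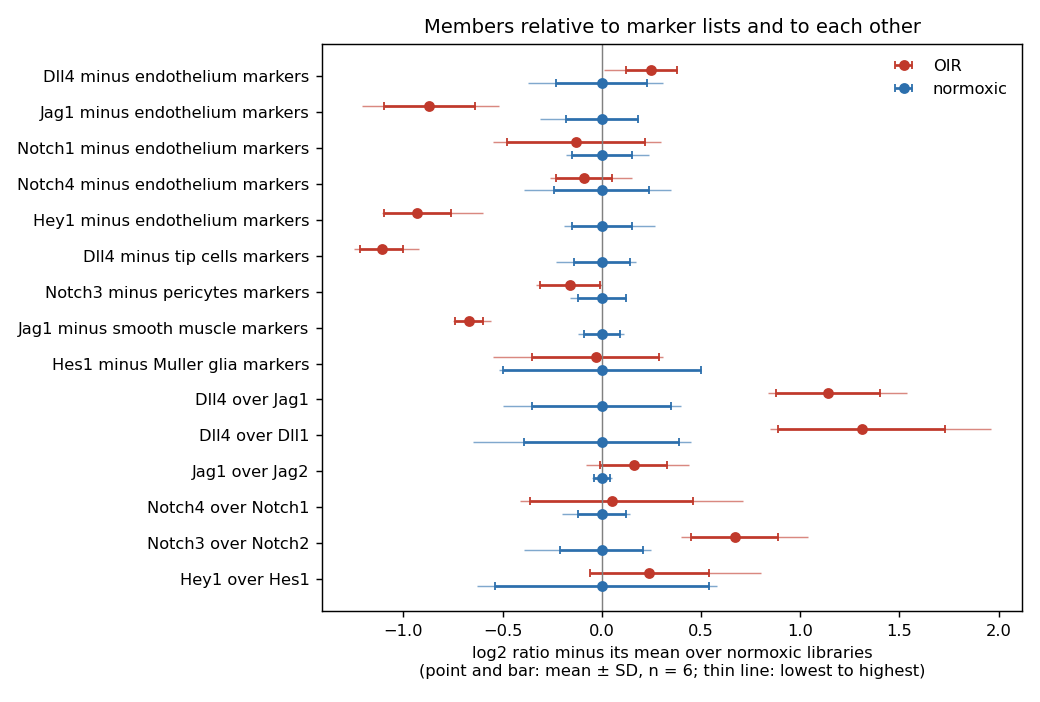
Log2 ratios within a library for the 15 comparisons (y axis), set to a mean of 0 over the normoxic libraries (x axis), with the OIR value drawn above the normoxic one. Points and bars are mean ± SD of 6 libraries and thin lines run from the lowest to the highest library. The ratios of Dll4 to Jag1 and to Dll1 lie to the right in OIR, and Jag1, Hey1 and Dll4 against the markers of endothelium, smooth muscle or tip cells lie to the left, except Dll4 against endothelial markers.

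Of 74 other genes of the pathway, 69 passed the filter on low counts, and 22 of these rose, 10 fell and 37 did not pass the test (edgeR adjusted p under 0.05). This is 46.4% of them, against 31.0% of all tested genes. The pathway lists, too, were chosen with earlier results of these data known, so such shares are a description only. The median log2 fold change of the 69 was 0.06, and the lists ranged from -0.05 for ligand endocytosis and receptor turnover to 0.73 for other target genes.

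Of 14 tested genes in the list of other targets, 10 rose, 1 fell and 3 did not pass (78.6% called, against 31.0% of all tested genes). The list mixes Notch-specific repressors with genes that many signals control, and those with the smallest p belong to the second kind. Cdkn1a, the cell cycle inhibitor p21, was at 6.49 ± 1.00 FPKM in OIR and 2.00 ± 0.597 FPKM in normoxic libraries (SD), a 3.25-fold rise (edgeR adjusted p = 5.0e-07). Bhlhe40, a repressor that hypoxia is known to induce, rose 1.74-fold (edgeR adjusted p = 7.4e-07).

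Among the Hes and Hey relatives, which were chosen after their values were seen, Hey2 and Heyl rose, and Hes6, the relative with the highest level, did not pass. Hes6 was at 23.0 ± 1.18 FPKM in OIR and 22.3 ± 1.48 FPKM in normoxic libraries (log2 fold change 0.05 ± 0.06 SE, edgeR adjusted p = 0.541). Hey2, a repressor of arterial endothelium, spanned 4.72 to 6.77 FPKM with a median of 5.73 in OIR and 3.03 to 4.03 FPKM with a median of 3.55 in normoxic libraries. The groups did not overlap, and the log2 fold change was 0.68 ± 0.09 (SE, edgeR adjusted p = 1.9e-05). Heyl, a repressor of vascular smooth muscle and pericytes, spanned 1.60 to 3.27 FPKM with a median of 1.91 in OIR and 0.686 to 1.18 FPKM with a median of 0.938 in normoxic libraries (log2 fold change 1.21 ± 0.19 SE, edgeR adjusted p = 6.8e-05). Its groups did not overlap either. Nrarp, a feedback inhibitor of Notch, had a low level of 0.647 ± 0.163 FPKM in OIR and 0.399 ± 0.131 FPKM in normoxic libraries (edgeR adjusted p = 0.0439). That call was lost on leaving out any single library among OIR replicates 2, 4, 5 and 6 and normoxic replicates 1, 2, 3 and 6, with adjusted p up to 0.106.

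Hes5, a further Hes repressor of progenitors and Müller glia, did not pass over all libraries (log2 fold change -0.56 ± 0.30 SE, edgeR adjusted p = 0.185). Like Hes1, it was high in normoxic replicates 1 to 3. Its level was 1.06 to 2.38 FPKM in OIR and 3.96 to 4.56 FPKM in normoxic replicates 1 to 3, and 1.62 to 2.91 FPKM in OIR and 1.25 to 2.00 FPKM in normoxic replicates 4 to 6. The fold changes of the sets differed by 1.83 on the log2 scale (edgeR's interaction term, adjusted p = 0.00548).

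Of 7 other ligands and ligand-like genes, 3 rose and 2 fell (71.4%, against 31.0% of all tested genes). Egfl7, a secreted protein of endothelium that can bind Notch receptors and is also among the endothelial markers above, spanned 5.95 to 8.42 FPKM in OIR and 3.02 to 4.40 FPKM in normoxic libraries, a 2.15-fold rise (edgeR adjusted p = 1.1e-07). Dner, a neuronal transmembrane protein described as a Notch ligand, fell by 0.67 ± 0.07 (SE) on the log2 scale, to 18.9 ± 1.96 FPKM in OIR, against 30.3 ± 2.25 FPKM in normoxic libraries (edgeR adjusted p = 7.8e-07). In both genes the groups did not overlap.

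Of 9 receptor cleavage genes 2 rose and 2 fell (44.4%, against 31.0% of all tested genes). Among them were Adam10, which encodes the main protease of the first receptor cut (1.23-fold higher, edgeR adjusted p = 9.0e-04), and Psen2, a catalytic subunit of gamma-secretase (log2 fold change -0.23, edgeR adjusted p = 0.00811). The call of Psen2 was lost within replicate numbers 4 to 6 (-0.19, edgeR adjusted p = 0.146). Of 19 tested genes of the nuclear complex and co-repressors 3 rose and 2 fell, which is 26.3% and below the 31.0% of all tested genes. Rbpj, the DNA-binding partner of the receptors, was at 3.77 ± 0.308 FPKM in OIR and 3.04 ± 0.253 FPKM in normoxic libraries (log2 fold change 0.32, edgeR adjusted p = 7.8e-04), but did not pass within numbers 4 to 6 (0.21, edgeR adjusted p = 0.0777). Tle2, a co-repressor that works with Hes proteins, fell by 0.74 on the log2 scale (edgeR adjusted p = 1.7e-05).

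Of 13 genes of ligand endocytosis and receptor turnover 3 rose and 1 fell, which is 30.8% and close to the 31.0% of all tested genes. The ubiquitin ligase gene Neurl1a rose 1.26-fold (edgeR adjusted p = 0.00154), and Dtx3, a Deltex family gene, fell by 0.33 on the log2 scale (edgeR adjusted p = 0.00310), though its difference was -0.15 within replicate numbers 4 to 6 (edgeR adjusted p = 0.0795). Of 7 genes of receptor glycosylation and processing, 1 rose and 2 fell (42.9%, against 31.0% of all tested genes). The Fringe gene Rfng, whose product modifies the sugars of Notch receptors, fell by 0.24 (edgeR adjusted p = 0.00130), as did the glucosyltransferase gene Poglut1 by 0.21 (edgeR adjusted p = 0.00712). Within numbers 1 to 3, Poglut1 was at -0.09 (edgeR adjusted p = 0.321). The Fringe gene Lfng had a log2 fold change of 0.33 (edgeR adjusted p = 0.0494), a call that was lost without any single OIR library and without normoxic replicate 1, 2 or 3, with adjusted p up to 0.119. The Lfng difference was 0.70 within numbers 1 to 3 and 0.04 within 4 to 6.

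**Figure D4:**
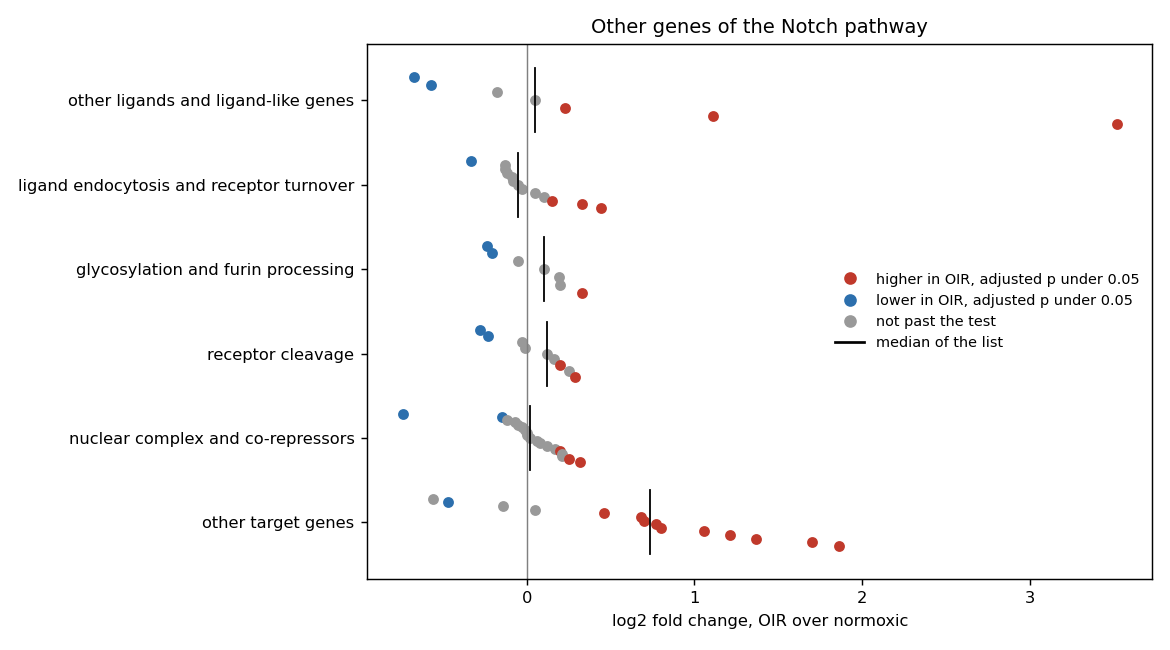
Log2 fold change of OIR over normoxic (x axis) of the 69 tested pathway genes in 6 lists (y axis), with red for genes higher and blue for genes lower in OIR past the test, grey for genes not past it, and a black line at the median of each list. The medians lie between -0.05 and 0.73, and the point farthest to the right is Dlk1 at 3.52.

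For each of the 6 genes that rose, the genes with the most similar profile over the 12 libraries were found among 4448 named genes past the test, by the root mean square distance between log2 levels taken relative to the normoxic mean. No shared control is implied by such likeness, and on this scale a similar fold change between the groups largely brings genes close. Closest to Dll4 were the endothelial adhesion molecule gene Pecam1 (distance 0.15) and the lipid droplet gene Plin2 (0.15). Their log2 fold changes were 1.29 and 1.31, beside 1.39 for Dll4. Closest to Notch3 were the smooth muscle caldesmon gene Cald1 (0.12) and the polyamine acetyltransferase gene Sat1 (0.13), and closest to Notch4 were Rflnb (0.14) and Tspan18 (0.15). Closest to Notch1 were Sec22c and Kremen1 (0.12 each), to Notch2 Map3k14 (0.08), and to Jag1 Arhgef10l (0.05) and Anp32a (0.06). The distances of Jag1 and Notch2 are small partly because these genes differed little between libraries, with an SD of 0.13 and 0.24 on the same scale.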

How the data were processed

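Reads came from 12 retina libraries, made with poly-A selection per the labels' protocols. The submitters' processing notes name HISAT2 (version 2.0.5), HTSeq, Trimmomatic and build GRCm39 without saying what each did. They give no annotation release, strand setting or filter. The authors deposited raw counts per gene as whole numbers, and FPKM. The deposited FPKM used 1 length per gene in every library (spread up to 3.7e-06% for values of at least 20 counts), so the length cancels between groups.

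Groups and replicate numbers came from the titles. The members and gene lists were chosen with earlier results of these data known. The count test was edgeR's quasi-likelihood test (edgeR version 4.0.16, R version 4.3.3), after filterByExpr (minimum count 10, total 15) and TMM scaling (factors 0.974 to 1.01). Its p-values were adjusted over 18275 genes, with a threshold of 0.05. SEs are the fold change over the root of its F statistic, and 95% intervals use the SE. Exact permutation tests used log2(CPM + 0.5) and were adjusted over 15 tests. Named pathway genes were the 2 with the smallest p in each list and all called genes of lists where 3 or fewer passed. Genes outside this rule are said to be chosen after their values were seen, as are Dlk1 and Dlk2. Libraries of a group differed by more than sampling noise in every pair (chi-square over its degrees of freedom from 3.05 to 15.4). Depths of 17361979 to 21594618 counts limit the precision of genes with few counts. The procedure was tested on simulated data. Promoter windows are RefSeq's, and the Notch3 window and 1 of the Dll1 windows had no transcript match to check their strand against. Alternatives were other scalings and filters, DESeq2 (version 1.42.0), limma (version 3.58.1) on log2 FPKM, a replicate block, a term for the sets of replicate numbers, fits within those sets, other pseudocounts, marker medians and leaving out each library. The interaction test of these sets was added after the data were seen. For each gene that rose, the 2 genes closest in profile were named, except that 1 of those for Notch2 is not reported here.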

Additional observations from a re-analysis of the deposited data

Results flagged for a closer look

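In Hey1, normoxic replicate 2 stood apart from the other normoxic libraries at 8.59 FPKM, with a gap to its nearest neighbour of 0.75 of the group's range (critical value 0.625). Chance gives such a gap in about 5% of groups, and 20 groups were examined. Without this library the Hey1 log2 fold change was 0.17 (edgeR adjusted p = 0.0905).

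The OIR fold change of Hes1 differed between replicate numbers 4 to 6 and 1 to 3 by 1.28 on the log2 scale (edgeR's interaction term, adjusted p = 1.2e-04). Of the 10 genes, Hes1 was the only one past this test. Its difference rests mainly on the normoxic libraries, at 29.9 to 33.3 FPKM in numbers 1 to 3 and 14.3 to 16.7 FPKM in 4 to 6. Relative to Müller glia markers, Hes1 still differed by -0.52 within numbers 1 to 3 and by 0.45 within 4 to 6. The share of mitochondrial counts also differed between the normoxic sets, and its part in the result was not tested.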

How the results depend on the processing

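Under other scalings, filters, DESeq2, limma on log2 FPKM, a term for the sets and each left-out library, the same number of the 10 genes was called, 6. Within replicate numbers 4 to 6 it was 7, including Hes1 and Hey1 but not Notch2, and within 1 to 3 it was 6, including Hes1, which was lower, but not Jag1. In all, 3671 genes were called within numbers 4 to 6 and 7226 within 1 to 3, against 5673 in all libraries. The cause was not tested. Signs turned within sets for Hey1 (-0.03 within 1 to 3), Dll1 (-0.13 within 4 to 6) and Hes1 (0.55 within 4 to 6). Leaving out 1 library gave log2 fold changes of -0.05 to 0.08 for Dll1 and -0.01 to 0.04 for Jag2.

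Of the ratios, Notch3 against pericyte markers was -0.22 with a pseudocount of 0.1 (exact permutation adjusted p = 0.0487). Against marker medians, Dll4, Notch1 and Notch4 were at -0.18, -0.57 and -0.52 relative to endothelium. The cause was not tested. Leaving out 1 library gave 0.18 to 0.32 for Dll4 against endothelial markers, -0.14 to 0.07 for Hes1 against Müller glia markers, -0.09 to 0.14 for Notch4 over Notch1, and 0.11 to 0.22 for Jag1 over Jag2, which passed without OIR replicate 1 (exact permutation adjusted p = 0.00406).

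The replicate numbers did not pair the libraries: same-numbered deviations correlated at -0.023 to 0.121, and 2 of 6 libraries correlated best with their own number. With the replicate block edgeR called 5675 genes, 6 of the 10, and 22 higher among the other pathway genes. Sign flips by number gave an exact adjusted p of 0.0521, the lowest of that test, for several comparisons, not all of which are listed here. Among them were Jag1 and Hey1 against endothelial markers (-0.88 and -0.93), Dll4 against tip cell markers (-1.11) and Jag1 against smooth muscle markers (-0.68). The ratios of Dll4 to Jag1 (1.13), Dll4 to Dll1 (1.30) and Notch3 to Notch2 (0.68) had the same value. The smallest p that these flips allow is 0.0312 before adjustment.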

Other observations

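Genes with a profile close to that of Hes1 were looked for after its values were seen, among 12375 named genes with a mean of at least 1 FPKM in a group. The closest was Id3, an inhibitor of basic helix-loop-helix factors (root mean square distance 0.18 on the log2 scale over 12 libraries). Its level was 29.5 to 30.7 FPKM in OIR and 48.8 to 55.5 FPKM in normoxic replicates 1 to 3, and 28.8 to 52.9 FPKM in OIR and 25.4 to 30.9 FPKM in normoxic replicates 4 to 6. The transaminase gene Gpt was the next closest (0.21), at 2.96 to 3.27 FPKM in OIR and 3.96 to 4.72 FPKM in normoxic replicates 1 to 3. In replicates 4 to 6 the Gpt groups overlapped, at 2.31 to 3.55 FPKM in OIR and 2.75 to 3.03 FPKM in normoxic libraries.

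Dlk1, a Delta-like protein without the receptor-binding region of the canonical ligands, was named after its values were seen. It had 327 counts over the OIR libraries and 28 over the normoxic libraries, with 26 to 90 counts per OIR library and 1 to 10 per normoxic library (edgeR adjusted p = 6.7e-06). Dlk2, its relative, was at 3.62 ± 0.400 FPKM in OIR and 5.41 ± 0.985 FPKM in normoxic libraries (SD, n = 6 each, edgeR adjusted p = 0.00154), with no overlap between the groups.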
